A study of Homo sapiens with 8 samples.

Results

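HSC39 is a human cell line grown from a signet ring cell carcinoma of the stomach. The data described here are its levels of 10 genes that are transcribed in response to the kinase ERK: the phosphatase genes DUSP4, DUSP5 and DUSP6, the inhibitor genes SPRY2, SPRY4, SPRED1 and SPRED2, the transcription factor genes ETV4 and ETV5, and PHLDA1. They were chosen by name as ERK-induced genes, with earlier results of these data known. All 10 were measured, each by 1 probe set, among 18404 genes that have a probe set with a single gene symbol. The 8 arrays comprised 4 of cells transfected with a control reagent, labelled All stars negative SiRNA and called negative siRNA here, 2 of cells transfected with TRIM44 siRNA 7 and 2 with TRIM44 siRNA 9. TRIM44 encodes a tripartite motif protein, and the comparison asks which transcripts differ once it is lowered. All cells were grown in medium with fetal calf serum, which itself supplies growth factors, and the labels give 100 nM siRNA (written nm) for 48 h. The protocol names only TRIM44 siRNA for these cells, so the dose of the negative siRNA is not given separately. The series counts 4 biological replicates per condition and so joins both TRIM44 reagents. Whether those replicates were grown as separate cultures is not said, and the p-values then cover only array-to-array spread, part of which can be technical. In such bulk samples, fewer cells that express a gene and less RNA per cell cannot be told apart.

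ERK is the last kinase of the cascade that runs from growth factor receptors through RAS, RAF and MEK. Active ERK turns on genes that shut it down again, and the RNA levels of those genes are widely used as a readout of how strongly the pathway signals. DUSP proteins remove the phosphates that activate ERK, Sprouty and Spred proteins act upstream at the receptors, RAS and RAF, and ETV4 and ETV5 are ETS family transcription factors that carry the signal on to further genes.

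The arrays were alike as a whole, with medians between 6.78 and 6.87 on the log2 scale and correlations between pairs of arrays from 0.991 to 0.997 across named probe sets. TRIM44 stood at 11.91, 12.02, 11.91 and 11.77 with negative siRNA, at 10.85 and 11.27 with siRNA 7, and at 11.10 and 11.14 with siRNA 9, so no siRNA array overlapped a negative array. Its log2 difference was -0.81 (SE 0.10, limma adjusted p = 0.0449). A 2-sided exact permutation test of that difference gave p = 0.0286, the smallest that 70 assignments allow. The adjusted p ran from 0.0306 to 0.291 when each array was left out in turn, and the call held only without siRNA 7 array 2. The epithelial marker genes, 7 of 7 measured, averaged between 11.6 and 11.8 on every array. Mean levels ran from 4.23 (PTPRC) to 9.20 (CD68) over 4 leukocyte markers, from 4.38 (DCN) to 9.77 (LUM) over 6 fibroblast markers and from 5.56 to 6.92 over 3 endothelial markers, and none of these passed the threshold in any comparison. Whether a dim probe set stands for an absent transcript could not be told, since signal over background is not given.

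No member passed the threshold in any comparison, and the sizes were small. With both TRIM44 reagents as 1 condition, 0 of 10 members passed (limma, adjusted p under 0.05 over 19158 probe sets), where 0.00522% of all probe sets passed. PHLDA1 and SPRY2 had an unadjusted p under 0.05, which makes 2 of 10 members beside 5.43% of all probe sets. The 10 differences ran from -0.20 to 0.25 with a median of 0.05, and the median over all probe sets was 0.01. Without regard to sign the medians were 0.12 for the members and 0.07 over all probe sets. They were 0.072 and 0.079 with siRNA 7, 0.21 and 0.10 with siRNA 9, and 0.21 and 0.12 between the reagents. Of the members 6 of 10 had a difference above 0, beside 53.7% of all probe sets, and none had siRNA arrays wholly outside the negative range (0 of 10, beside 2.86%). For siRNA 7 alone 0 of 10 passed, beside 0.0679% of probe sets, and DUSP4 was the 1 member with an unadjusted p under 0.05, beside 7.46%. For siRNA 9 alone 0 of 10 passed, beside 0.924%, but DUSP5, SPRY2, SPRY4 and PHLDA1 had an unadjusted p under 0.05, 4 of 10 beside 13.6%. The siRNA 9 arrays lay outside the range of the negative arrays for 6 of 10 members, beside 22.7% of all probe sets, and those 6 went in different directions: DUSP5, SPRY2, SPRED1 and PHLDA1 were above it, and SPRY4 and SPRED2 were below. The siRNA 7 arrays did so for 1 of 10, DUSP4, beside 14.4%. Between the reagents 0 of 10 members passed, beside 2.23%, and DUSP4, DUSP5 and SPRY4 had an unadjusted p under 0.05, 3 of 10 beside 15.7%. The siRNA 9 arrays lay wholly to one side of the siRNA 7 arrays for 7 of 10 members, beside 48.6% of probe sets. Differences above 0 numbered 5 of 10 with siRNA 7 (beside 49.3%), 4 of 10 with siRNA 9 (beside 56.5%) and 4 of 10 between the reagents (beside 56.7%). The siRNA 7 and siRNA 9 comparisons use the same negative arrays, so their values are not independent. The members were chosen with earlier results of these data known, so their shares and sizes are no support for a change.

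**Figure D1:**
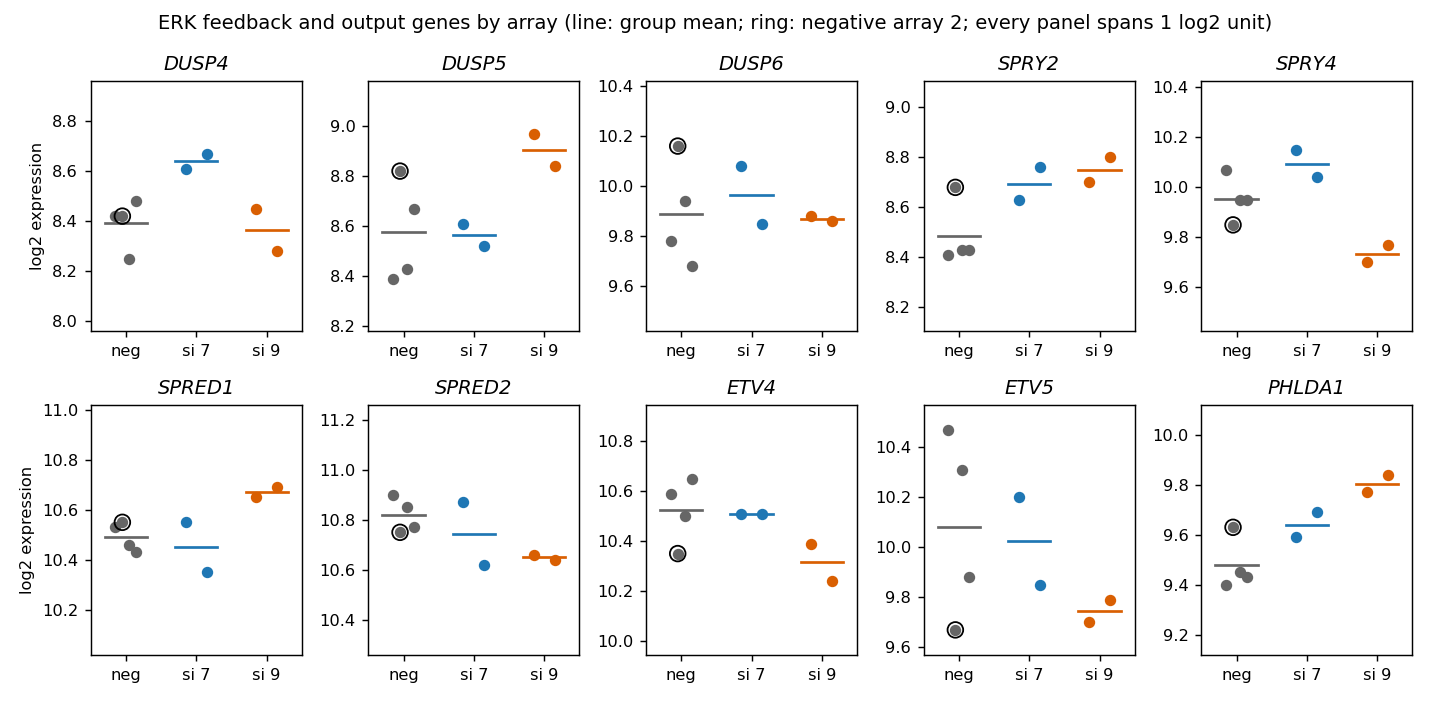
Log2 expression of each of the 10 genes (vertical axis, every panel spanning 1 log2 unit) on the 4 negative siRNA arrays, the 2 siRNA 7 arrays and the 2 siRNA 9 arrays; points are arrays, lines are group means and the ring marks negative array 2. For PHLDA1 and DUSP5 both siRNA 9 arrays lie above every negative array, and for SPRY4 both lie below, and of the negative arrays number 2 sits nearest to the siRNA 9 arrays in each of these panels.

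None of the 3 phosphatase genes passed the threshold in any comparison; DUSP4 was highest on the siRNA 7 arrays, DUSP5 on the siRNA 9 arrays, and DUSP6 on negative array 2. DUSP4 is a nuclear phosphatase that acts on ERK and on the stress kinase JNK. It stood at 8.42, 8.42, 8.25 and 8.48 with negative siRNA, at 8.61 and 8.67 with siRNA 7 and at 8.45 and 8.28 with siRNA 9. The siRNA 7 arrays were above all the others, and the siRNA 9 arrays lay among the negative arrays. The log2 difference from negative siRNA was 0.25 with siRNA 7 (95% interval 0.04 to 0.46, limma adjusted p = 0.571) and -0.02 with siRNA 9 (-0.23 to 0.19, adjusted p = 0.957), and siRNA 9 differed from siRNA 7 by -0.27 (-0.52 to -0.03, adjusted p = 0.261).

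DUSP5, a nuclear phosphatase that acts on ERK and holds it in the nucleus, had the opposite order. It stood at 8.39, 8.82, 8.43 and 8.67 with negative siRNA, at 8.61 and 8.52 with siRNA 7 and at 8.97 and 8.84 with siRNA 9. The siRNA 9 arrays were the highest, and negative array 2 lay just under the lower of them. Against negative siRNA the log2 difference was -0.01 with siRNA 7 (95% interval -0.29 to 0.26, adjusted p = 0.998) and 0.32 with siRNA 9 (0.05 to 0.60, adjusted p = 0.263). Between siRNA 9 and siRNA 7 it was 0.34 (0.02 to 0.65, limma adjusted p = 0.272).

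DUSP6 is the cytoplasmic, ERK-selective phosphatase and is among the genes most often used as an ERK readout. It stood at 9.78, 10.16, 9.94 and 9.68 with negative siRNA, at 10.08 and 9.85 with siRNA 7 and at 9.88 and 9.86 with siRNA 9. Every siRNA array lay inside the range of the negative arrays. For both reagents together the log2 difference was 0.02, with a 95% interval from -0.21 to 0.26. Its promoter window is shown because it holds letters that match the octamer of Capicua, a repressor that ERK signalling is known to relieve. The window is chr12:89352472-89352751, minus strand, GRCh38.p14, from RefSeq, its first 280 of 300 bases. Capitals mark both copies of the Capicua octamer TCAATGGA, here read on the opposite strand, and 1 ETS core CGGAAG, also on the opposite strand.

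DUSP6: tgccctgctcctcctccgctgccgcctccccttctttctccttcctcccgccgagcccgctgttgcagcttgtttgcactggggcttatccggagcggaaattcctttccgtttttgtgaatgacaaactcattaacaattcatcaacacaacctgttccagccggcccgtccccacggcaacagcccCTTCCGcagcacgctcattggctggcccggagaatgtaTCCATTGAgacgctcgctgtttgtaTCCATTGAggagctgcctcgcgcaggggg

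The octamer was searched on both strands in 4 spellings, TGAATGAA, TGAATGGA, TCAATGAA and TCAATGGA, which do not contain CGGAAG or the AP-1 site TGACTCA, the other motifs searched. Of 35116 promoter windows of 300 bases in the RefSeq table, 3.77% hold at least 1 of the 4 spellings and 0.33% hold 2 or more. RefSeq windows were given for 6 of the 10 genes, DUSP6, PHLDA1, SPRED1, SPRED2, SPRY2 and SPRY4, and DUSP6 was the only one of these with the octamer. CGGAAG occurred in windows of 3 of the 6, DUSP6, PHLDA1 and SPRED2, and in 19.5% of all windows. The 6 genes have 9 windows in all, so a count of genes is not directly comparable with a share of windows. TGACTCA occurred at 1 of the SPRED2 start sites and in 4.95% of all windows. A match describes these letters and is not evidence of binding.

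The Sprouty and Spred genes did not move as a group. SPRY2, which blocks receptor signalling to RAS and RAF, had the smallest unadjusted p of this family for both reagents together, 0.0183 in limma. It stood at 8.41, 8.68, 8.43 and 8.43 with negative siRNA, at 8.63 and 8.76 with siRNA 7 and at 8.70 and 8.80 with siRNA 9. All 4 siRNA arrays were above 3 of the negative arrays, and negative array 2 lay among them. Its log2 difference was 0.23 (95% interval 0.05 to 0.42, limma adjusted p = 0.883) for both reagents together, 0.20 with siRNA 7 and 0.26 with siRNA 9. Between siRNA 9 and siRNA 7 the difference was 0.06 (-0.20 to 0.32, limma adjusted p = 0.887).

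SPRY4, a second Sprouty inhibitor, had reagent differences of opposite sign. Its levels were 10.07, 9.85, 9.95 and 9.95 with negative siRNA, 10.15 and 10.04 with siRNA 7 and 9.70 and 9.77 with siRNA 9. Both siRNA 9 arrays were below every other array. With siRNA 7 the difference from negative siRNA was 0.14 (limma adjusted p = 0.856), and with siRNA 9 it was -0.22 (limma adjusted p = 0.328). The siRNA 9 mean minus the siRNA 7 mean was -0.36 (95% interval -0.59 to -0.12, limma adjusted p = 0.117), the smallest adjusted p of any member in any of the 4 comparisons.

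SPRED1, which brings the RAS inactivator neurofibromin to the membrane, stood at 10.53, 10.55, 10.46 and 10.43 with negative siRNA, at 10.55 and 10.35 with siRNA 7 and at 10.65 and 10.69 with siRNA 9. The siRNA 9 arrays were the highest and the siRNA 7 arrays lay at the top of the negative range and below it. With siRNA 9 the log2 difference was 0.18 (95% interval -0.02 to 0.39, limma adjusted p = 0.437). SPRED2, its close relative, stood at 10.90, 10.75, 10.85 and 10.77 with negative siRNA, at 10.87 and 10.62 with siRNA 7 and at 10.66 and 10.64 with siRNA 9. Of its siRNA arrays, siRNA 7 array 1 lay inside the negative range and the other 3 lay below it. Its log2 difference was -0.12 for both reagents together (-0.30 to 0.06, adjusted p = 0.997) and -0.17 with siRNA 9 (adjusted p = 0.512).

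ETV4 and ETV5 were lower on siRNA 9 arrays than on the negative mean, but overlapped the negative arrays through negative array 2. ETV4 stood at 10.59, 10.35, 10.50 and 10.65 with negative siRNA, at 10.51 on both siRNA 7 arrays and at 10.39 and 10.24 with siRNA 9. Negative array 2 lay between the 2 siRNA 9 arrays, and the siRNA 7 arrays lay in the middle of the negative range. The log2 difference was -0.01 with siRNA 7 (95% interval -0.24 to 0.21, limma adjusted p = 0.998) and -0.21 with siRNA 9 (-0.44 to 0.02, adjusted p = 0.415).

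ETV5 varied most among the negative arrays, from 9.67 to 10.47, a range of 0.81. Its levels were 10.47, 9.67, 10.31 and 9.88 with negative siRNA, 10.20 and 9.85 with siRNA 7 and 9.70 and 9.79 with siRNA 9. Negative array 2 was the lowest of all 8 arrays, so neither reagent's arrays reached below the negative range. For ETV5 the difference was -0.05 with siRNA 7 (95% interval -0.48 to 0.37, adjusted p = 0.998) and -0.34 with siRNA 9 (-0.77 to 0.09, limma adjusted p = 0.502), the widest intervals of any member.

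PHLDA1, a pleckstrin homology-like protein induced by ERK, had the largest difference for both reagents together. It stood at 9.40, 9.63, 9.45 and 9.43 with negative siRNA, at 9.59 and 9.69 with siRNA 7 and at 9.77 and 9.84 with siRNA 9. The siRNA 9 arrays were above every other array, and negative array 2 overlapped the siRNA 7 arrays. The log2 difference was 0.25 (SE 0.09, 95% interval 0.06 to 0.43, limma adjusted p = 0.832) for both reagents together, which is 1.19-fold. With siRNA 7 alone it was 0.16 (limma adjusted p = 0.813), and with siRNA 9 alone 0.33 (limma adjusted p = 0.153). Between siRNA 9 and siRNA 7 it was 0.16 (-0.08 to 0.41, limma adjusted p = 0.542). Its promoter is shown as that of the member with the largest difference. The stretch is chr12:76031777-76032026, minus strand, GRCh38.p14, from RefSeq, the 250 bases before the start, with the ETS core CGGAAG in capitals.

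PHLDA1: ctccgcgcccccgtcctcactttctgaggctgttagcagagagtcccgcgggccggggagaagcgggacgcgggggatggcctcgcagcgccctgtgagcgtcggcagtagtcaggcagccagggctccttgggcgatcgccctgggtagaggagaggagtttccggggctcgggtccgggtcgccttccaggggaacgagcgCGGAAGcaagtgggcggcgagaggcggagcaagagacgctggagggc

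**Figure D2:**
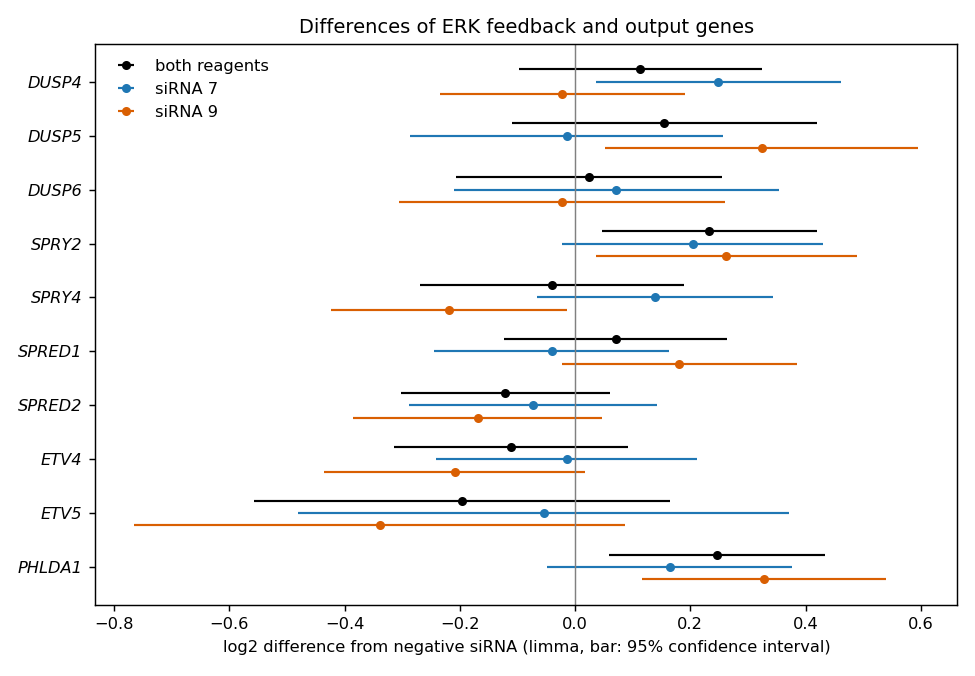
Log2 difference from negative siRNA (horizontal axis) of each gene for both TRIM44 reagents together, siRNA 7 and siRNA 9, with the 95% confidence interval of the limma fit. Intervals for both reagents together leave out 0 for SPRY2 and PHLDA1, and the siRNA 9 values spread from -0.34 for ETV5 to 0.33 for PHLDA1.

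The siRNA 9 differences were larger for 8 of 10 members when negative array 2 was left out. For these 8, that array departed from the other negative arrays in the direction of the siRNA 9 difference. Larger differences without it then follow by arithmetic and are no support for a change. The share of all probe sets that moved in this way was not computed. Among the negative arrays, array 2 was the highest for 5 members (DUSP5, DUSP6, SPRY2, SPRED1 and PHLDA1) and the lowest for 4 (SPRY4, SPRED2, ETV4 and ETV5), 9 of 10 in all. Over all probe sets it was the highest or lowest in 69.7%. Negative array 4 was so for 4 members and 61.3% of probe sets, array 1 for 6 and 41.6%, and array 3 for 1 and 27.3%. Without negative array 2, 2 of 10 members passed with siRNA 9. DUSP5 had a log2 difference of 0.41 (95% interval 0.18 to 0.64, limma adjusted p = 0.0468) and PHLDA1 had 0.38 (0.19 to 0.57, adjusted p = 0.0274). The number of probe sets past the threshold went from 177 (0.924%) to 1067 (5.57%). Without this array SPRY2 had 0.33 (adjusted p = 0.0544), ETV5 had -0.48 (adjusted p = 0.114), ETV4 had -0.27 (adjusted p = 0.126) and SPRY4 had -0.25 (adjusted p = 0.136). DUSP4 had -0.01 and DUSP6 had 0.07, a change of sign. With siRNA 9 array 1 or array 2 left out, 0 probe sets passed in limma, which gave 1449 and 1543 with an unadjusted p under 0.05.

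**Figure D3:**
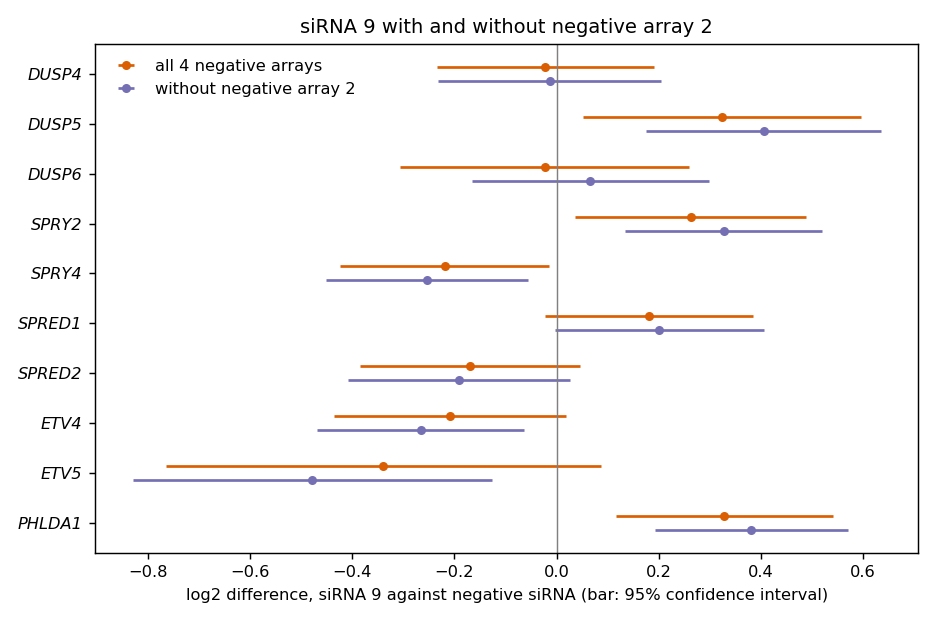
Log2 difference of siRNA 9 from negative siRNA (horizontal axis) with all 4 negative arrays and without negative array 2, with 95% confidence intervals. Leaving the array out moves 8 of the 10 genes farther from 0, such as DUSP5 from 0.32 to 0.41 and ETV5 from -0.34 to -0.48, brings DUSP4 nearer to 0 and turns the sign of DUSP6. The 8 moves follow from where that array lies and are no support for a change.

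The same 3 arrays stood apart for EGR1, FOS and JUN, which serum and ERK turn on within minutes. These were named because of that pattern, after their values were seen, so their values are a description. The early response genes EGR3, JUNB and FOSB were not highest of the negative arrays on array 2. EGR3 was at 6.34 on negative array 2 and 6.41 on negative array 1, and JUNB was at 10.51 and 10.58 on the same arrays. FOSB was at 7.66 on negative array 2 and 8.05 on negative array 4. EGR3 was at 6.59 on both siRNA 9 arrays, above every other array. Among the other listed ERK output genes, IER2, IER3, ATF3, MAFF, HBEGF, EPHA2, EPHA4 and PLAUR were highest of the negative arrays on array 2. ETV1, FOSL1, CCND1, EREG, LIF, UPP1 and KLF10 were not. EGR1, a zinc finger transcription factor gene, stood at 9.16, 10.60, 9.16 and 9.30 with negative siRNA, at 9.27 and 9.06 with siRNA 7 and at 10.75 and 10.74 with siRNA 9. Negative array 2 and both siRNA 9 arrays were thus more than 1 log2 unit above the other 5 arrays. FOS, which encodes a subunit of the AP-1 transcription factor, was at 10.23 on negative array 2 and at 10.26 and 10.21 on the siRNA 9 arrays, and between 9.42 and 9.72 on the other 5. JUN, its partner, was at 9.73 on negative array 2 and at 9.92 and 9.86 on the siRNA 9 arrays, and between 8.99 and 9.27 on the other 5. With all arrays the siRNA 9 difference from negative siRNA was 1.19 for EGR1, 0.49 for FOS and 0.62 for JUN, and without negative array 2 it was 1.54, 0.66 and 0.78. With all arrays none of the 3 passed (limma adjusted p = 0.117, 0.229 and 0.124). Between siRNA 9 and siRNA 7 the EGR1 difference was 1.58 (limma adjusted p = 0.0503). It passed under some alternatives, such as quantile normalization (limma adjusted p = 0.0411), and not under others, such as median centring and all probe sets tested. With array weights all 3 genes passed between the reagents (limma adjusted p = 0.00616, 0.0204 and 0.0139). FOS and JUN did not pass with quantile normalization, median centring or all probe sets tested. The part of the level of these 3 genes on an array in the members' values was not tested.

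**Figure D4:**
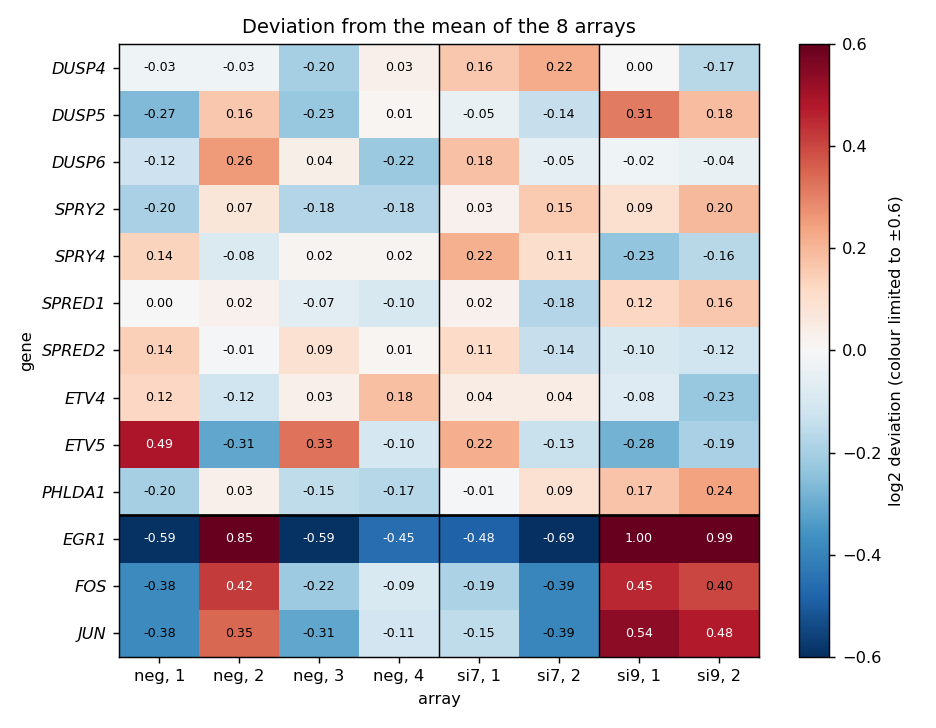
Log2 level of the 10 members (above the line) and of EGR1, FOS and JUN (below it) on each of the 8 arrays, as the deviation from that gene's mean over the arrays; colour is limited to 0.6 either way and the values are printed. EGR1, FOS and JUN are high on negative array 2 and on both siRNA 9 arrays. On the same 3 arrays DUSP5, SPRY2 and PHLDA1 are above their means, and SPRY4, ETV4 and ETV5 below theirs. Other arrays also lie above the mean for DUSP5 (negative array 4), SPRY2 (both siRNA 7 arrays) and PHLDA1 (siRNA 7 array 2). For ETV5, negative array 4 and siRNA 7 array 2 also lie below it. DUSP6 is above its mean on negative array 2 but below it on both siRNA 9 arrays.

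The rest of the pathway was described with 6 lists of 81 genes, of which 71 were measured. In the 2-group comparison 0 of 71 genes passed and 13 had an unadjusted p under 0.05, 18.3% beside 5.43% of all probe sets. These lists were drawn up with earlier results of these data known, so the share is no support for a change. In the siRNA 7 and siRNA 9 comparisons 0 of 71 genes passed (limma), and 11 and 16 had an unadjusted p under 0.05, 15.5% beside 7.46% of all probe sets and 22.5% beside 13.6%.

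Among 7 other MAP kinase phosphatases, 5 had a difference above 0 and the median was 0.10. DUSP7, a cytoplasmic ERK phosphatase, had 0.28, also with each reagent alone. DUSP10, which acts on the stress kinases p38 and JNK, had -0.32 (adjusted p = 0.903) and was at 8.65 and 8.33 with siRNA 7 against 8.86 to 9.31 with negative siRNA. DUSP16, a JNK phosphatase, had 0.18 (0.04 with siRNA 7 and 0.32 with siRNA 9). DUSP1, an early phosphatase of all MAP kinases, had 0.12 (0.03 with siRNA 7 and 0.21 with siRNA 9). Of 11 measured genes of other inhibitors of RAS and receptor signalling, 4 were above 0 and the median was -0.02. Among these, RASA2, a RAS inactivator, had 0.33, LRIG1, which lowers receptor levels, had 0.23, the neurofibromin gene NF1 had -0.10 on its brighter probe set and LZTR1, an adaptor for RAS degradation, had -0.10.

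Upstream, 6 of 8 receptor genes had a difference above 0, with a median of 0.06. The receptor genes of smallest p were ERBB3 at -0.26, FGFR1 at 0.22, FGFR2 at 0.09 and FGFR4 at 0.07. FGFR2, a fibroblast growth factor receptor gene, stood between 11.65 and 11.94 on all 8 arrays. Of 15 measured adaptors and kinases of the RAS and ERK cascade, 9 were above 0 and the median was 0.05. GRB2, the adaptor that joins receptors to RAS activation, had 0.20, the MEK gene MAP2K1 0.15, and MAPK3, which encodes ERK1, -0.14. SOS1, the RAS activator, had 0.25 for both reagents together, but -0.0081 with siRNA 7 and 0.50 with siRNA 9. GAB1, a docking protein for receptor signalling, was the only listed gene past the threshold in any comparison of the reported fits. It stood at 9.01 and 8.97 with siRNA 7 and at 9.66 and 9.57 with siRNA 9, a difference between the reagents of 0.62 (SE 0.13, adjusted p = 0.0337), with negative arrays at 9.08, 9.48, 9.22 and 9.14. Its dimmer probe set had 0.13 (adjusted p = 0.613), and the call ended with all probe sets tested (adjusted p = 0.120) and after median centring (0.0566). It also ended without negative array 3 (0.0641) and without any 1 of the siRNA arrays (0.102 to 0.280).

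Among 9 measured ETS and Capicua regulators, 4 were above 0 and the median was -0.04. ETS2, an ETS factor, had 0.29 (limma adjusted p = 0.792), ATXN1, a partner of Capicua, had -0.36, ETS1 had -0.13 and ELK3 had -0.10. The 21 measured other ERK output genes had a median of 0.14, with 18 above 0, beside 53.7% of all probe sets. EPHA4, a receptor gene, had 0.32, PLAUR, the urokinase receptor gene, 0.29, CCND1, which encodes cyclin D1, 0.26 and the early response gene IER3 0.19, with adjusted p from 0.887 to 0.903. With siRNA 7 and siRNA 9 apart, EPHA4 had 0.14 and 0.50, and CCND1 had 0.10 and 0.41. ETV1 of the same list went the other way, with -0.31 (limma adjusted p = 0.903), and had -0.50 with siRNA 7 and -0.11 with siRNA 9. By reagent, the median of this list was 0.04 with siRNA 7 and 0.14 with siRNA 9.

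**Figure D5:**
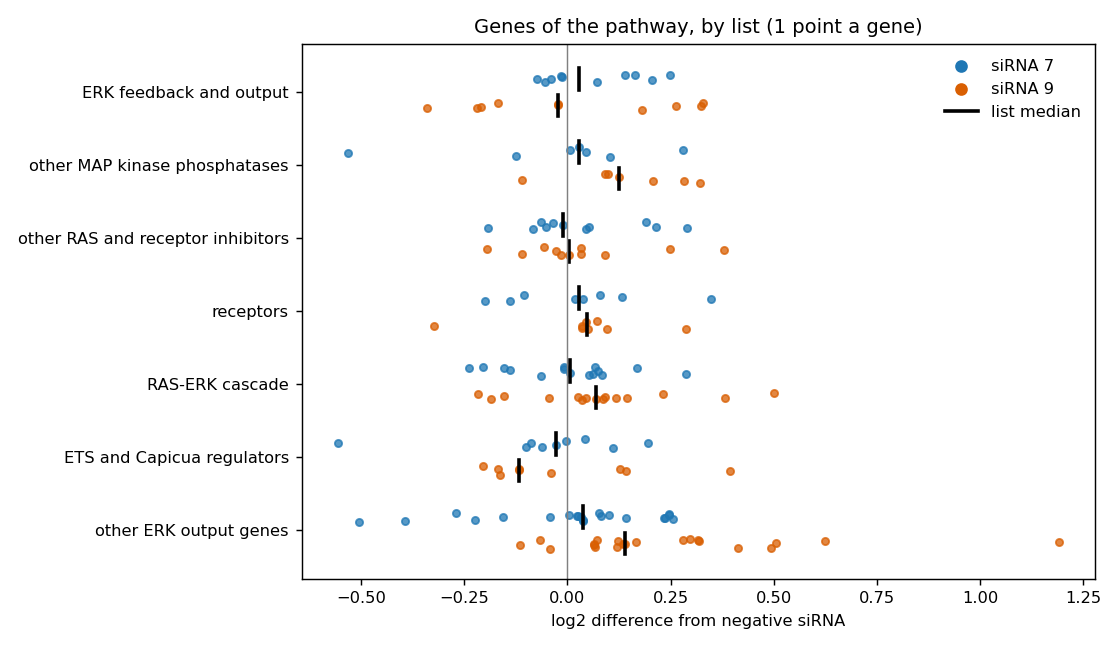
Log2 difference from negative siRNA (horizontal axis) of each measured gene, by list, for siRNA 7 and siRNA 9, with list medians as bars. The 10 ERK feedback and output genes have medians of 0.03 with siRNA 7 and -0.02 with siRNA 9 and spread to either side of 0, and EGR1, at 1.19 with siRNA 9, is the point farthest to the right.

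Averaged over the 10 members, the deviation from the mean was between -0.05 and 0.09 on every array, highest on siRNA 7 array 1. On negative array 2 and both siRNA 9 arrays, members above and members below their means offset each other. On siRNA 7 array 1 all members but DUSP5 and PHLDA1 lay above their means, which raised the average there. The genes whose levels over the 8 arrays were most like this average were PRDM8 (Pearson r = 0.92, Spearman rho = 0.76), SERTAD1 (0.91, 0.52), RP1L1 (0.90, 0.76), SPART (0.89, 0.57) and ANTXR2 (0.89, 0.48), given as a description with 8 arrays as points. They were the top 5 of all genes by this measure, and siRNA 7 array 1 was the highest array for each of them.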

How the data were processed

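RNA of 8 HSC39 samples was hybridised to Affymetrix whole-transcript arrays. The authors deposited a log2 expression level for each of 32321 probe sets on each array. The submitters' processing notes name limma. At equal rank, values on different arrays lay within 0.180 of each other. How probe sets were summarised, the genome build and any filter: not given in the sources used here. Names came from the platform annotation, with gene IDs looked up in RefSeq GRCh38.p14 (19128 found, with 0 changes of symbol). The test covered the 19158 probe sets with 1 symbol, with no filter on level, and left out 1388 with several symbols and 11775 with none.

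Groups followed the labels. A limma fit of 2 groups compared TRIM44 siRNA with negative siRNA, and a fit of 3 group means compared the reagents. Tests were 2-sided moderated limma tests, adjusted by Benjamini-Hochberg over 19158 probe sets. The fits were tested on simulated data. Precision is limited by how few arrays there are. The members and lists were chosen with earlier results of these data known. Named genes were TRIM44, all members, in each list up to 4 genes of smallest unadjusted p for both reagents together, listed genes past the threshold, and 5 genes most like the members' average. EGR1, FOS and JUN were added after their values were seen, as were ETV1 and the other ERK output genes set beside them. Where a gene had several probe sets, the brightest on average was used. Alternatives covered scaling, probe sets tested, prior, array weights, arrays included and a replicate block. R 4.3.3, limma 3.58.1, scipy 1.17.1 and matplotlib 3.10.9 were used.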

Additional observations from a re-analysis of the deposited data

Results flagged for a closer look

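Among groups of 4 arrays, 1 array stood apart from the other 3 in 6 of 78 groups tested. Many of these genes were picked by their values, and EGR1, FOS and JUN for this very pattern. The count therefore cannot be set against a chance rate. With negative siRNA, array 2 was apart for SPRY2 at 8.68, for PLAUR at 9.72 and for EGR1 at 10.60. With the 2 TRIM44 reagents joined, siRNA 7 array 1 was apart for DUSP6 at 10.08 and for SPRED2 at 10.87, and siRNA 7 array 2 for ATXN1 at 8.01. The effect of siRNA 9 and siRNA 7 differed for GAB1, by 0.62 on the log2 scale (limma adjusted p = 0.0337).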

How the results depend on the processing

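With all 32321 probe sets tested, after median centring and with the replicate block, the TRIM44 difference was -0.81, -0.81 and -0.88 and no longer passed (adjusted p = 0.442, 0.108 and 0.998), and leaving out each array gave -0.87 to -0.73. For siRNA 9 the number of members past the threshold was 4 of 10 with array weights (DUSP5, SPRY2, ETV5 and PHLDA1), where 2082 probe sets passed, 10.9% of all, and 0 to 2 when each array was left out. In the other 3 comparisons no member passed under any alternative run. The probe sets past the threshold numbered 0 to 33 for both reagents together (1 as reported), 0 to 83 for siRNA 7 (13), 0 to 2082 for siRNA 9 (177) and 0 to 1063 between the reagents (428). Of the 428, 63.3% were higher with siRNA 9, and of the 351 after median centring 48.4%. Over leave-one-out fits the median member difference ran from 0.00 to 0.10 for both reagents, -0.030 to 0.12 for siRNA 7, -0.07 to 0.03 for siRNA 9 and -0.20 to 0.0077 between the reagents.

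Signs turned for small differences. With array weights DUSP5 had 0.093 with siRNA 7 and DUSP4 had 0.055 with siRNA 9. With each array left out, the differences for both reagents together ran from -0.046 to 0.11 for DUSP6, -0.12 to 0.031 for SPRY4 and -0.047 to 0.18 for GAB1. Those with siRNA 7 ran from -0.075 to 0.067 for DUSP5, -0.043 to 0.19 for DUSP6, -0.14 to 0.062 for SPRED1, -0.20 to 0.056 for SPRED2, -0.072 to 0.028 for ETV4 and -0.23 to 0.12 for ETV5. Those with siRNA 9 ran from -0.11 to 0.063 for DUSP4 and -0.093 to 0.066 for DUSP6. Between the reagents they ran from -0.21 to 0.019 for DUSP6, -0.0039 to 0.12 for SPRY2, -0.23 to 0.032 for SPRED2 and -0.15 to 0.27 for TRIM44. The causes were not tested.

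Groups share replicate numbers 1 and 2, and the deviations of same-numbered arrays correlated at 0.02 to 0.31 over 6 pairs, all above 0. In a group of 2 arrays the deviations mirror each other, so the 6 values are not independent. They cannot settle whether the numbers mark a pairing. The reported fits used no pairing, and the replicate block was run as an alternative. With the replicate block, 0 of 10 members passed in each comparison, the probe sets past the threshold numbered 0, 0, 44 and 450, DUSP6 had -0.055 for both reagents and -0.0071 with siRNA 7, and ETV4 had 0.038 with siRNA 7. The GAB1 difference between the reagents no longer passed with the block (adjusted p = 0.0513). The probe set of lowest mean could not serve as an alternative for the members, each of which has 1. A lone array left in a group was assumed to vary like the others. Signal over background is not given, so dim probe sets have no known limit.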
